A study of Mus musculus with 6 samples.

Results

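Transcripts of the LIF, gp130 and STAT3 signalling route were examined in mouse embryonic stem cells with and without E-cadherin. The 9 members were chosen by name, as the rows of the count table that carry the symbols Lif, Lifr, Il6st, Jak1, Stat3, Socs2, Socs3, Pim1 and Pim3, out of 55401 genes in all. RNA-seq libraries came from V6.5, an embryonic stem cell line of hybrid mouse origin, with 3 libraries of wild-type (WT) cells and 3 of cells in which both copies of Cdh1, the gene of E-cadherin, were disrupted (Cdh1-/-, here the knockout). The libraries of each genotype are named A, B and C. All libraries came from the same line, and the labels name no further allele or treatment. The number of knockout clones, the culture medium, its LIF content and any feeder cells are not given in the sources used here, nor is it said whether the libraries of a genotype came from separate cultures, so the p-values below measure the spread between these libraries, which may be technical.

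LIF is a cytokine that binds a receptor made of the LIF receptor chain and gp130, the signalling chain shared by the interleukin-6 family. Kinases of the JAK family bound to these chains then phosphorylate STAT3, which pairs up, enters the nucleus and activates genes. In mouse embryonic stem cells this route supports self-renewal, with SOCS proteins as inhibitors that STAT proteins themselves induce and with PIM serine/threonine kinases among the targets.

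Total counts lay between 18020719 and 23381942 per library. Cdh1 itself was read at 537 to 571 CPM (counts scaled to library size with TMM factors) in the WT libraries and at 166 to 183 CPM in the knockout libraries, so the 2 groups were apart and transcript remained. The summed level of 8 embryonic stem cell markers, Pou5f1, Sox2 and Nanog included, was 2857 to 3287 CPM in WT and 2742 to 3628 CPM in the knockout. None of the 8 was called by edgeR at an adjusted p under 0.05, against 13.3% of all tested genes. Of these, 1 had an unadjusted p under 0.05, DESeq2 called 1 higher (Zfp42) and limma-voom called 0, while without knockout replicate A edgeR called 2 higher (Nanog and Zfp42). On the second principal component, which held 20.9% of the variance, knockout replicate A lay at 43.5 and the other 5 libraries between -25.8 and 8.99. In bulk samples, fewer cells of a type and less RNA per cell cannot be told apart.

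Pim1 was the one member that changed past the threshold, and it fell in the knockout to 62.1% of its WT level. For the receptor genes Lifr and Il6st, for Jak1 and Stat3 and for the feedback inhibitor Socs3, the 95% intervals of the change lay between 0.844 and 1.40 times the WT level. All 9 members passed the filter on low counts. By edgeR's quasi-likelihood test at a Benjamini-Hochberg adjusted p under 0.05, 1 of 9 was called, against 13.3% of the 17325 tested genes, and that share is near the background. The median log2 change (knockout minus WT, from the fit) was 0.07 over the members and -0.01 over all tested genes, and the median size of the change was 0.14 and 0.23. At an unadjusted p under 0.05, 4 members passed, and so did 26.7% of all tested genes. In 4 members the knockout libraries did not overlap the WT libraries, 3 of them higher and 1 lower, while 30.7% of all tested genes had such separate groups.

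**Figure D1:**
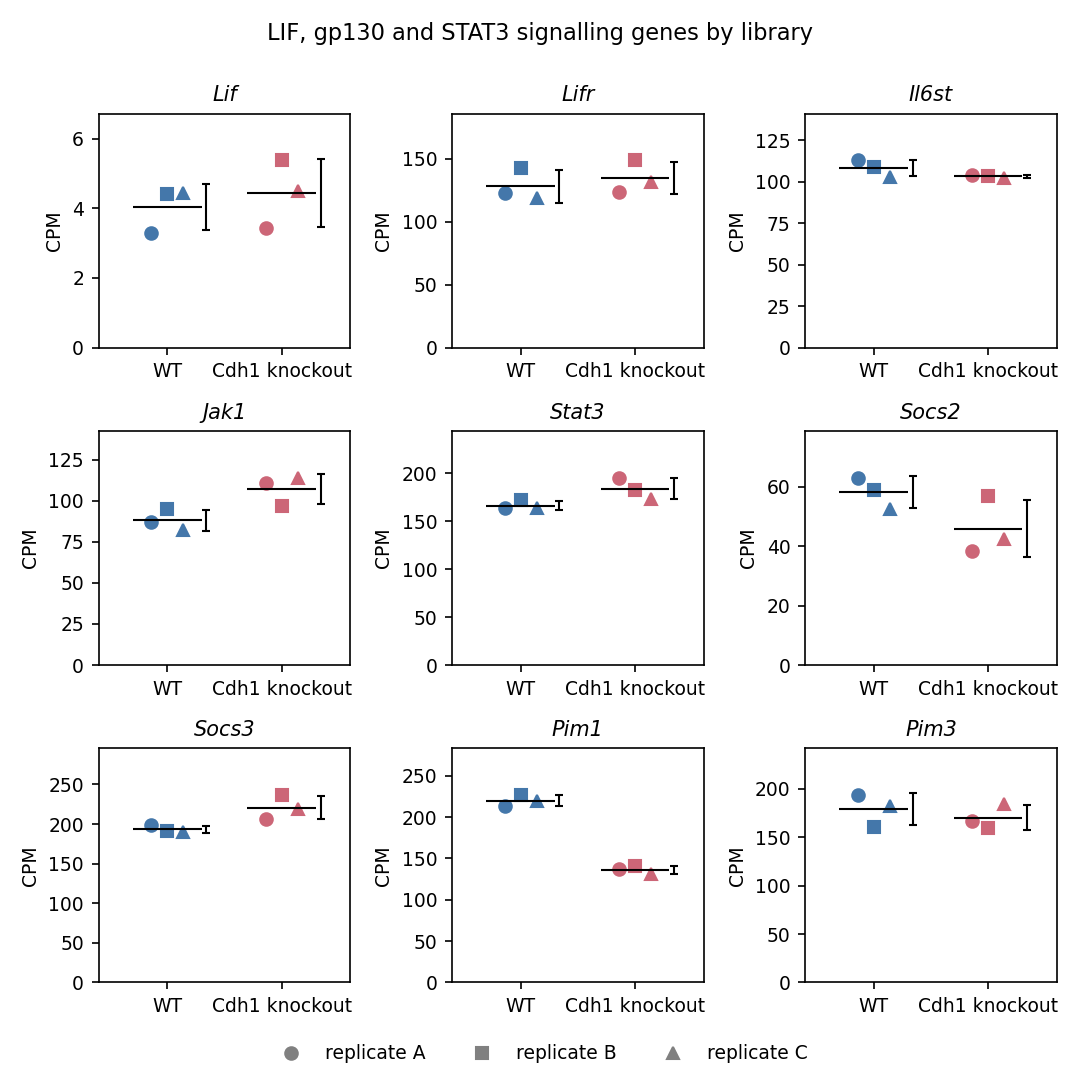
Level of each of the 9 members in every library, in CPM on a linear axis from 0. Points are libraries with the replicate letter as the symbol, horizontal lines are means and bars are SD (n = 3 each). Pim1 shows a gap between genotypes, from 141 CPM in the highest knockout library to 213 CPM in the lowest WT library.

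Levels of different genes were compared per kilobase of exon. In WT the order ran from Socs3 at 75.7 CPM per kilobase, Pim3 at 73.7 and Pim1 at 70.6 through Stat3 at 26.7, Socs2 at 21.6, Jak1 at 17.9, Lifr at 12.3 and Il6st at 9.86 to Lif at 0.998. The first 3, a feedback inhibitor and 2 kinases, overlapped each other between neighbours in this order, and the other neighbours did not overlap. In the knockout the first 3 no longer overlapped, with Socs3 at 86.5, Pim3 at 70.1 and Pim1 at 43.8 CPM per kilobase. Jak1 at 21.8, Socs2 at 17.0 and Lifr at 13.0 then formed overlapping neighbours.

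The ligand gene Lif (ENSMUSG00000034394.14, GRCm38 chromosome 11, 4257557 to 4272514, plus strand) was the least abundant member. It held 73, 87 and 89 counts in WT (A, B, C) and 62, 123 and 89 counts in the knockout replicates. Scaled for depth, the level was 4.04 ± 0.657 CPM in WT against 4.43 ± 0.974 CPM in knockout cells (SD, n = 3 each). The groups overlapped, and replicate A was the lowest library in each. The log2 change of 0.14 had a 95% interval from -0.41 to 0.69 (edgeR adjusted p 0.791). In folds the interval runs from 0.751 to 1.61 times the WT level.

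The 2 receptor chains were counted far more deeply. Lifr, the ligand-binding chain (ENSMUSG00000054263.12, chromosome 15, 7090614 to 7197489, plus strand), stood at 123, 143 and 119 CPM in WT (A, B, C) and at 123, 149 and 132 CPM in the knockout. Replicate B was the highest in both genotypes, and the groups overlapped. Its log2 change was 0.07 (95% interval -0.14 to 0.29, edgeR adjusted p 0.701). Il6st, the gene of gp130 (ENSMUSG00000021756.12, chromosome 13, 112464070 to 112510086, plus strand), stood at 113, 109 and 103 CPM in WT, then 104, 103 and 102 CPM in the knockout. The knockout libraries lay within 2 CPM of one another at the lower end of the WT values. With a log2 change of -0.07 and an interval from -0.25 to 0.11 (adjusted p 0.666), Il6st had the narrowest range of all members in the knockout, 0.03 on the log2 CPM scale.

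Jak1 encodes the main kinase bound to gp130 in this route (ENSMUSG00000028530.14, chromosome 4, 101152367 to 101265282, minus strand). Its level was 86.8, 94.9 and 82.4 CPM in WT (A, B, C) and 111, 96.9 and 114 CPM in the knockout. All knockout libraries lay above all WT libraries, but knockout replicate B exceeded WT replicate B by little. The log2 change was 0.28 (standard error 0.09), and it missed the threshold in edgeR (adjusted p 0.0639, unadjusted 95% interval 0.08 to 0.49). Over 16 alternative settings the adjusted p of Jak1 ran from 0.0326 to 0.207, and 3 of them called it: the fit with no filter beyond 1 count, DESeq2 (adjusted p 0.0482), and the fit without knockout replicate B (adjusted p 0.0442).

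Stat3, the transcription factor of the route (ENSMUSG00000004040.16, chromosome 11, 100885098 to 100939540, minus strand), was read at 163, 172 and 163 CPM in WT, then 195, 182 and 173 CPM in the knockout replicates A, B and C. The lowest knockout library lay just above the highest WT library. The difference, 0.14 on the log2 scale with an interval from -0.03 to 0.32, did not pass the test (edgeR adjusted p 0.294) and was called in none of the 16 alternatives. Counts of Stat3 RNA carry no measurement of STAT3 phosphorylation.

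**Figure D2:**
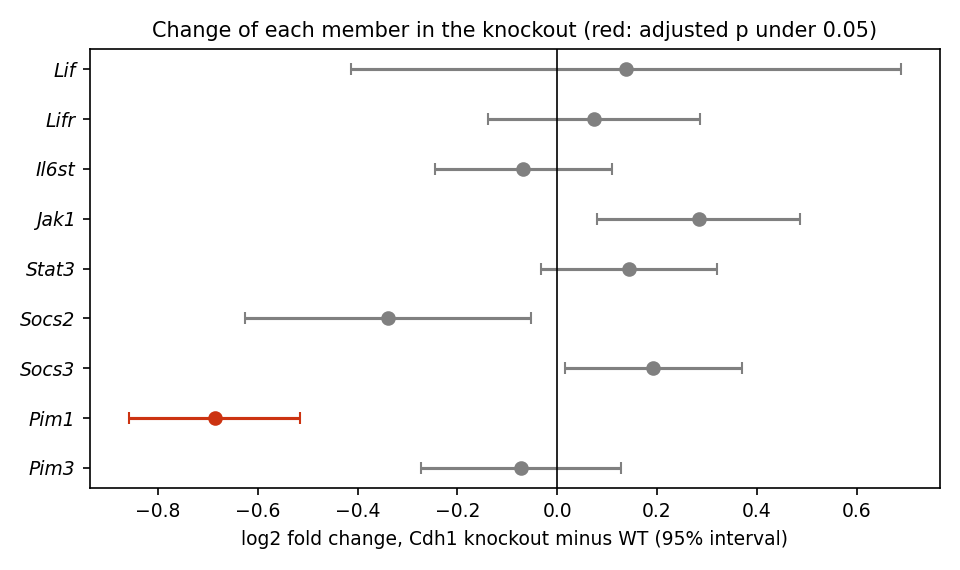
Log2 change of each member, knockout minus WT, with its unadjusted 95% interval from the edgeR fit. The interval of Pim1, from -0.86 to -0.51, is the lowest, and that of Lif, from -0.41 to 0.69, is the widest.

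The 2 SOCS members, inhibitors of cytokine signalling, differed in the sign of their estimates. Socs3, which binds gp130 and JAK and is a standard readout of STAT3 activity (ENSMUSG00000053113.3, chromosome 11, 117966079 to 117970047, minus strand), stood at 198, 192 and 189 CPM in WT (A, B, C) and at 207, 236 and 219 CPM in the knockout. The groups did not overlap, yet the gap between the nearest libraries was smaller than the spread within the knockout. Its log2 change of 0.19 (standard error 0.08, interval 0.01 to 0.37) missed the threshold in edgeR (adjusted p 0.152) and in all 16 alternatives, whose adjusted p ran from 0.0672 to 0.366. Socs2, an inhibitor best known from growth hormone signalling (ENSMUSG00000020027.18, chromosome 10, 95385362 to 95417180, minus strand), stood at 63.0, 59.0 and 52.5 CPM in WT, then 38.5, 56.8 and 42.5 CPM in the knockout. Knockout replicate B lay inside the WT range and the other 2 lay below it. The log2 change was -0.34 (standard error 0.13, interval -0.63 to -0.05, edgeR adjusted p 0.118). Leaving out knockout replicate B moved it to -0.51 with an adjusted p of 0.0212, the one alternative among 16 that called Socs2, whose adjusted p ran up to 0.351.

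Pim1 and Pim3 encode kinases that are described as STAT3 targets in embryonic stem cells. Pim1 (ENSMUSG00000024014.8, chromosome 17, 29490753 to 29496112, plus strand) held 4742, 4481 and 4375 counts in WT (A, B, C) and 2472, 3229 and 2607 counts in the knockout replicates. Scaled for depth these were 213, 226 and 219 CPM in WT and 137, 141 and 132 CPM in the knockout, so every knockout library lay well below every WT library. The mean fell from 220 ± 6.5 to 136 ± 4.76 CPM (SD, n = 3 each). The log2 change was -0.69 (standard error 0.08), with an interval from -0.86 to -0.51 (edgeR adjusted p 5.5e-05). Among all tested genes 5.71% were called lower, and the size of the Pim1 change ranked at percentile 85.6. It was called in all 16 alternatives, with log2 changes from -0.72 to -0.65 and adjusted p up to 0.00121. In the annotation, 15.0% of the exon bases of Pim1 lie under Gm26885 on the opposite strand. That gene held between 4 and 14 counts in a library, and whether reads were counted by strand is not given in the sources used here.

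Pim3 (ENSMUSG00000035828.11, chromosome 15, 88862186 to 88865726, plus strand) stood at 193, 161 and 182 CPM in WT, then 166, 160 and 185 CPM in the knockout. The groups overlapped almost fully, with replicate B the lowest in both. Its log2 change was -0.07 with an interval from -0.27 to 0.13 (edgeR adjusted p 0.687). Pim2, the third PIM kinase gene and no member (chromosome X), rose from 23.9 ± 2.17 to 35.4 ± 6.28 CPM (log2 change of 0.57, edgeR adjusted p 0.0125). The call was lost on dropping WT replicate B (log2 change of 0.58) or WT replicate C (0.51), with adjusted p up to 0.0613. The PIM genes thus had 1 called lower, 1 called higher and 1 not called.

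Ratios within a library do not depend on the scaling between libraries. Pim1 relative to Pim3, per kilobase of exon, had a log2 ratio of -0.22, 0.13 and -0.10 in WT (A, B, C) and of -0.64, -0.54 and -0.85 in the knockout. For Pim1 relative to Socs3 the log2 ratio was -0.18, -0.04 and -0.08 in WT and -0.88, -1.03 and -1.02 in the knockout. Against Pim2 it was 2.44, 2.61 and 2.74 in WT and 1.08, 1.49 and 1.5 in the knockout. The deposited exon length of Pim2, 2045 bases, differs from the 1113 bases of the annotation, where its identifier has another version. The level of the ratio to Pim2 depends on that length, and its difference between genotypes does not. In each of the 3 ratios all knockout libraries lay below all WT libraries, with mean differences of -0.62, -0.88 and -1.24. The exact two-sided permutation p was 0.10 for each (0.10 after Benjamini-Hochberg adjustment over 3), which is the smallest that 3 libraries against 3 can give, so the permutation test could not pass 0.05 in this design. These ratios were formed after the changes of the single genes were known.

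**Figure D3:**
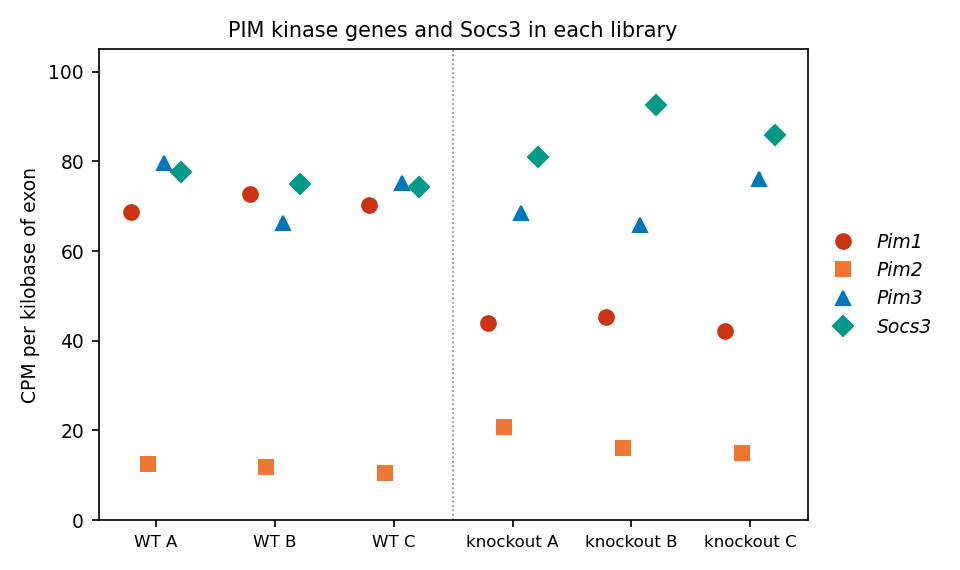
Pim1, Pim2, Pim3 and Socs3 in each library, in CPM per kilobase of exon on a linear axis from 0, with the symbols set slightly apart along the horizontal axis. Pim1 lies at 68.6 to 72.8 in WT, near Pim3 and Socs3, and at 42.3 to 45.3 in the knockout, below both. The height of the Pim2 points rests on its deposited exon length of 2045 bases.

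Pim1 and Socs3 were nearly equal in WT per kilobase and 1 of them fell, so the sequences around their RefSeq starts are shown. The letters searched were TTCNNNGAA, the core that STAT dimers recognise, which reads the same on both strands. RefSeq windows of GRCm38.p6 that run from 250 bases before to 50 bases after a start were available for 8 of the 9 members, 10 windows in all. The motif was in 1 of the 10, against 8.30% of all 32851 windows. That window belongs to Socs3, where the motif TTCTTAGAA begins at -154 from the start and is in capitals. The window lies wholly inside Socs3 as annotated above (117966079 to 117970047). The motif is therefore before the RefSeq start used but not before the annotated 5' end of the gene. The windows of both Pim1 starts held no match to these letters, which says nothing about sites elsewhere.
Socs3, chr11:117969317-117969616, minus strand: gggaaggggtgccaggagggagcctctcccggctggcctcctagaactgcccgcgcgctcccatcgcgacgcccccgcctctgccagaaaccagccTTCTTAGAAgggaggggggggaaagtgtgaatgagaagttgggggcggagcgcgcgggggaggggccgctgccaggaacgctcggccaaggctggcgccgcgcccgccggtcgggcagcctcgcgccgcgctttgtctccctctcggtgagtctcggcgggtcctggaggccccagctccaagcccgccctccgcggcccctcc
Pim1, first start, chr17:29490535-29490834, plus strand: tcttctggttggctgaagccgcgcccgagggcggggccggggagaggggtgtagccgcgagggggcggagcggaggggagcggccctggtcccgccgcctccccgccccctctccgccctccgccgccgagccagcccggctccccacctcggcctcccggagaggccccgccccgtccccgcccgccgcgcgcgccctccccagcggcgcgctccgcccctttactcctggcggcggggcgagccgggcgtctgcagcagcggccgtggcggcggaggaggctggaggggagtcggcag
Pim1, second start, chr17:29492835-29493134, plus strand: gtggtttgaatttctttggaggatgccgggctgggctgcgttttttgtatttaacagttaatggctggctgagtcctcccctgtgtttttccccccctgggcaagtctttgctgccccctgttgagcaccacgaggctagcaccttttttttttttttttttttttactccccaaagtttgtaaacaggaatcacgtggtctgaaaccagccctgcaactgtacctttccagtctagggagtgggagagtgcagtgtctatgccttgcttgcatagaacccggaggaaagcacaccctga
By base content, 81.3% of the bases around the first Pim1 start and 73.3% of those around the Socs3 start are G or C, against a median of 52.7% over all windows. Around the second Pim1 start, whose window like that of Socs3 lies wholly inside the annotated gene, the share is 49.0%.

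The tested genes with the most similar pattern over the 6 libraries were found by the root mean square distance between log2 CPM values, each gene centred on its own mean, among 9774 genes with a mean of at least 10 CPM. Map4k4, BC055324 and Abl2 were nearest to Pim1, at distances of 0.06 each. Their log2 changes were -0.72, -0.67 and -0.65, and all 3 lie on chromosome 1, whose 1002 tested genes had a median log2 change of -0.33 in the knockout. Pim1 lies on chromosome 17, whose median was 0.02. No member lies on chromosome 1, on chromosome 14, whose median was 0.53, or on chromosome Y, whose 6 tested genes had a median of -2.56. Nearest to Socs3 were D3Ertd254e, Zfp775 and Psmd2, at distances of 0.03 each, and none of these 3 was called.

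The wider pathway was described with 67 further genes in 5 lists. Of these, 61 were tested, and 10 were called higher and 3 lower, against 7.60% and 5.71% of all tested genes. The median log2 change was 0.04, and 48 genes did not pass. The count was 6 when chromosomes 1, 14 and Y were left out (Stat4, Tfcp2l1, Gbx2, Klf5 and Socs4 lie on those chromosomes and were not fitted, and Socs1 and Tyk2 lost their calls). Without WT replicate B it was 6, without WT replicate A it was 7 and without knockout replicate C it was 8. With every gene of at least 1 count it was 17.

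**Figure D4:**
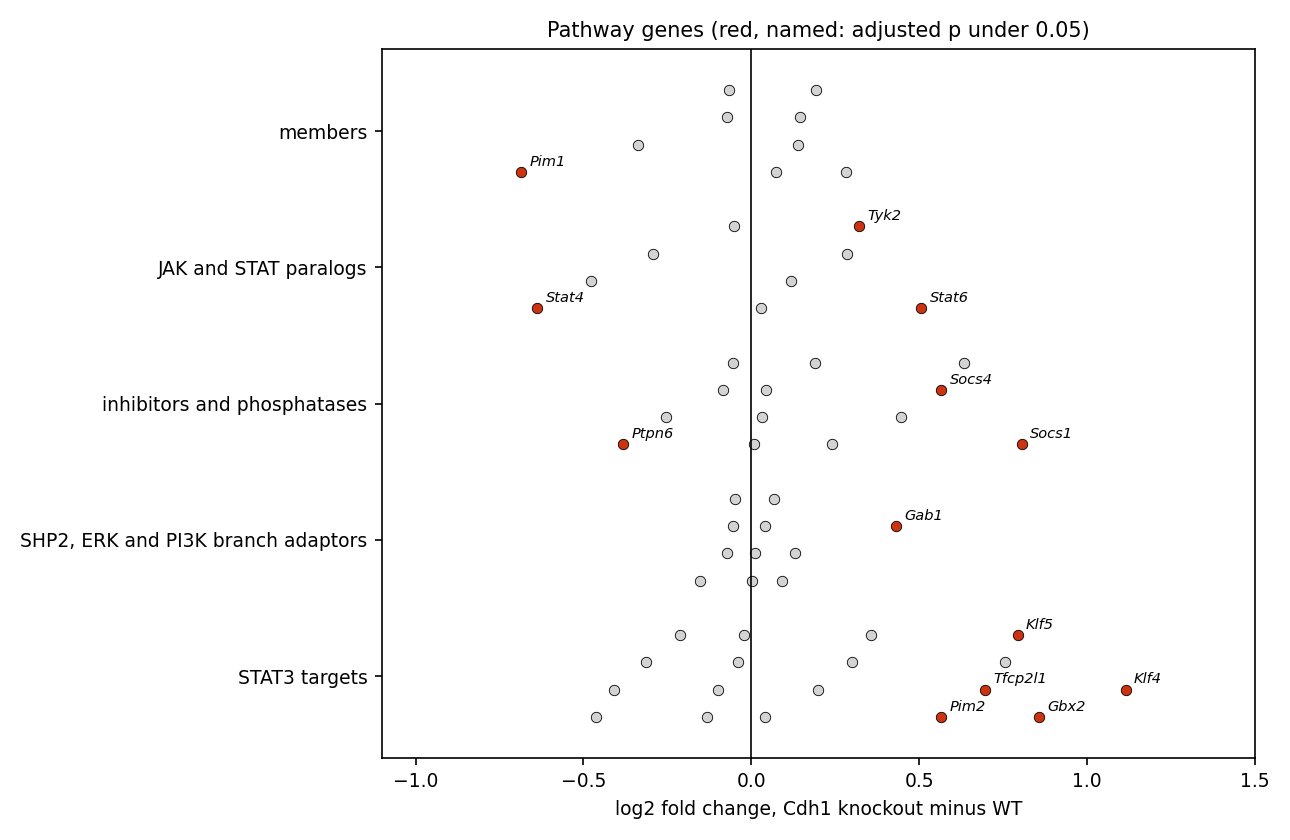
Log2 change, knockout minus WT, of the 9 members and of the tested genes of 4 of the 5 pathway lists, cytokines and receptors left out, with 1 point per gene and vertical offsets only for legibility. Red points with names passed an adjusted p of 0.05 in edgeR. In the list of STAT3 targets 5 red points lie on the right and none on the left, while Pim1 lies on the left.

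Among 15 other cytokine and receptor genes of the gp130 family, 5 were too sparse to be tested, Il6 and Osm among them, with at most 12 counts in a library. Among the 10 tested, 0 were called higher and 1 lower, against 7.60% and 5.71% of all tested genes, and its values are not reported here. An unadjusted p under 0.05 was found in 4, against 26.7%, and groups that did not overlap in 7, against 30.7%. The receptor genes Il6ra at 3.56 and 3.19 CPM in the 2 genotypes, Osmr at 0.713 and 0.955 CPM, and Cntfr at 35.6 and 41.9 CPM were not called.

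In the other JAK and STAT genes, 2 of 9 were called higher and 1 lower, against 7.60% and 5.71% of all tested genes. Stat6, the STAT of interleukin-4 signalling, rose from 35.4 ± 2.24 to 50.3 ± 2.98 CPM (log2 change of 0.51, edgeR adjusted p 0.00399), and the call held in all 16 alternatives. Tyk2, a JAK kinase that can also bind gp130, rose from 44.9 ± 2.48 to 56.0 ± 2.29 CPM (log2 change of 0.32, adjusted p 0.0395), but lost its call in each of the 6 fits that left out a library (adjusted p up to 0.127) and with upper quartile factors or library totals. Stat4 on chromosome 1 had a log2 change of -0.64 (adjusted p 0.0167, and up to 0.0785 without WT replicate A, WT replicate C or knockout replicate C), where the median of its chromosome was -0.33. In the annotation 32.8% of its exon bases are shared with Gm28177 on the same strand, so its reads are uncertain. Jak2 at 16.5 and 15.9 CPM in the 2 genotypes and Stat5b at 33.3 and 36.1 CPM were not called.

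Inhibitors and phosphatases gave 2 called higher and 1 lower among 13, against 7.60% and 5.71% of all tested genes. Socs4, on chromosome 14, had a log2 change of 0.57 (edgeR adjusted p 0.00168), close to the median of 0.53 of that chromosome. Socs1, an inhibitor of JAK kinases, rose from 3.03 ± 0.288 to 5.31 ± 1.07 CPM (log2 change of 0.81, adjusted p 0.0474). It kept its call in 6 of 16 alternatives, and in 1 of the 6 fits that left out a library, the one without knockout replicate B. Ptpn6, the gene of the phosphatase SHP1, fell from 25.8 ± 0.786 to 19.8 ± 0.814 CPM (log2 change of -0.38, adjusted p 0.0419), and lost its call in each of those 6 fits (adjusted p up to 0.130), and 7.48% of its exon bases lie under Gm20531 on the opposite strand. Cish, an inhibitor induced by STAT5, stood at 2.11 and 3.28 CPM in the 2 genotypes and was not called. Of the 11 genes that link gp130 to ERK and PI3K, 1 was called, against 13.3% of all tested genes. Gab1, a docking protein for the phosphatase SHP2, rose from 386 ± 1.14 to 521 ± 16.8 CPM (log2 change of 0.43, adjusted p 0.00155), in all 16 alternatives, with 5.34% of its exon bases under Gm31105 on the opposite strand. Ptpn11, which encodes SHP2, stood at 128 and 124 CPM.

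Of 19 further genes described as STAT3 targets, 18 were tested. Of these, 5 were called higher and 0 lower, against 7.60% and 5.71% of all tested genes. At an unadjusted p under 0.05 there were 8 higher and 1 lower, against 14.1% and 12.6% of all tested genes. DESeq2 and limma-voom also called these 5 higher and none lower in this list, apart from Myc, which DESeq2 called higher too. The list's counts moved with the settings. Without knockout replicate A there were 8 higher, without WT replicate B there were 2, and without chromosomes 1, 14 and Y there were 2. Ier3, an immediate early gene chosen here after its values were seen, had a log2 change of -0.46 (edgeR adjusted p 0.346). It was called lower with every gene of at least 1 count (adjusted p 0.0202) and with the replicate letter as a block (adjusted p 0.0208). Without knockout replicate C it was also called lower (log2 change of -0.97, adjusted p 0.0218). Klf4, a naive pluripotency factor, stood at 236, 195 and 279 CPM in WT (A, B, C) and at 360, 616 and 562 CPM in the knockout (log2 change of 1.12, edgeR adjusted p 0.000398). Tfcp2l1, a pluripotency factor downstream of STAT3, stood at 320, 378 and 345 CPM in WT, then 496, 586 and 606 CPM in the knockout (log2 change of 0.69, adjusted p 0.000222) although its chromosome 1 had a median of -0.33. In both genes knockout replicate A was the lowest knockout library and still lay above WT. Klf5 on chromosome 14 had a log2 change of 0.79 (adjusted p 0.00735, and 0.0684 without WT replicate B), where the median of its chromosome was 0.53. Gbx2, a homeobox gene of chromosome 1, had one of 0.86 (edgeR adjusted p 0.0242, and up to 0.130 without WT replicate A, WT replicate B, knockout replicate B or knockout replicate C). Its groups overlapped, with knockout replicate A at 11.2 CPM and WT replicate C at 12.5 CPM. Of its exon bases, 32.3% lie under D130058E05Rik on the opposite strand. Myc, at 7.46 ± 1.30 CPM in WT against 12.6 ± 4.89 CPM in knockout cells, missed the threshold (adjusted p 0.0657). Pim1 was called in the opposite direction to the 5 genes of this list called by the edgeR test, and Socs3 and Pim3 were not called.

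Markers of other cell types that a stem cell culture can hold were read beside these results. All 7 primitive endoderm markers (Gata4, Gata6, Sox17, Sox7, Pdgfra, Dab2 and Foxa2) were called higher, against 7.60% of all tested genes. Their summed level was 32.4 to 54.3 CPM in WT libraries and 90.0 to 170 CPM in knockout libraries. No marker of that list was at 0. DESeq2 called 6 (all but Dab2) and limma-voom 6 (all but Foxa2). Foxa2 held only 4 to 6 counts in a WT library and 12 to 32 in a knockout library. It passed the filter on low counts only through the knockout, where it is high. When single libraries were dropped, 5 to 7 of these markers were called, and 5 without any 1 of WT replicates A, B and C or knockout replicate C. Gata4, Sox7 and Sox17 lie on chromosomes 14 and 1, and the other 4 were called without those chromosomes and Y. The 10 fibroblast markers summed to 27.3 to 44.9 CPM in WT and 19.9 to 32.3 CPM in the knockout. Among the 5 tested, 1 was called lower (Col1a1), against 5.71% of all tested genes, and S100a4 was at 0 in every library. In the annotation 60.6% of the exon bases of S100a4 are shared with Gm42674 on the same strand, so its 0 is uncertain. The 5 trophoblast markers summed to 12.4 to 16.7 CPM and 9.26 to 18.3 CPM. EdgeR called 0 of the 4 tested, against 13.3% of all tested genes (0 also at an unadjusted p under 0.05, by DESeq2 and by limma-voom). The part of these cells in the fall of Pim1 or the rise of Klf4 was not tested.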

How the data were processed

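RNA-seq of WT and Cdh1-/- V6.5 cells was used, with 3 libraries each, grouped by genotype from the sample titles. The deposited values are whole-number counts for each gene, in columns named as in the sample descriptions, and were treated as raw read counts. Reads were trimmed with cutadapt 2.10, aligned with STAR 2.7.5b to GRCm38 and counted with featureCounts 2.0.1, per the submitters' processing notes. Their settings, strand setting included, are not given in the sources used here. The table's exon lengths (bases, per the file header) equalled those of the basic GENCODE M21 annotation for 54331 of 54349 genes with the same identifier and version, so its coordinates are used. Among counts from 1 to 10, 78.1% to 83.1% were even. Where both mates of a pair are counted, counting error follows pairs; counts divided by 2 were therefore tried.

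In R 4.3.3 with edgeR 4.0.16, genes were kept by filterByExpr (smallest count 10, smallest total 15), which left 17325, and scaled by TMM. A quasi-likelihood model with genotype as its only term was fitted to all genes, with Benjamini-Hochberg adjustment over all of them and calls at an adjusted p under 0.05. Intervals cover the log2 fold change, unadjusted. DESeq2 1.42.0 and limma-voom (limma 3.58.1) were alternatives. On simulated counts for 17325 genes, 56 of 100 2-fold and 86 of 100 4-fold changes were recovered, with 16 false calls among 158. No other gene was changed there, a smaller share than the 13.3% called in the data, so these rates may not carry over.

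The 9 members, the pathway and marker lists and the tests were chosen with earlier results of these data known. Named were all members, Cdh1, the called pathway genes, further pathway genes given for their levels, and the 3 genes nearest in pattern to Socs3 and to the called member with the largest change. Col1a1, S100a4, Zfp42, Nanog and the primitive endoderm genes come from the marker lists, and the overlapping genes from the annotation. Values of 2 pathway genes that this rule names are not reported here.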

Additional observations from a re-analysis of the deposited data

How the results depend on the processing

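Over 16 alternatives the call of Pim1 held in each, and the number of called members was 1 in 13. It was 2 with every gene of at least 1 count and 2 with DESeq2 (Jak1 added in both), and it lay between 1 and 3 when single libraries were dropped, with Jak1 and Socs2 added without knockout replicate B. Pathway genes called ran from 6 to 14 when single libraries were dropped, against 13. They numbered 17 with every gene of at least 1 count and 6 without chromosomes 1, 14 and Y. All genes called ran from 1374 to 2784 when single libraries were dropped, against 2307. The count was 1374 without WT replicate A and 1470 without WT replicate B. It was 2799 with every gene of at least 1 count, and 1535 without the 3 chromosomes, where fewer genes were tested. The share of all calls that were higher was 57.1%, and 49.9% under upper quartile factors. The sign of the estimate changed in 1 setting for 1 member, Lif, at -0.01 without knockout replicate B, and in none for the other 8. With the replicate letter as a block, called members stayed at 1, pathway genes numbered 15, with Ier3 (lower) and Myc (higher) added, and all genes 2686. Deviations of libraries with the same letter correlated at 0.14 for A, -0.03 for B and 0.23 for C, so the letters were not taken as pairs. Lif had the fewest counts of the members, 62 to 123 in a library.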
